A study of Rattus norvegicus with 24 samples.

Results

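The Wistar-Kyoto rat (WKY), the usual comparison strain for the spontaneously hypertensive rat (SHR), was set against the Sprague-Dawley rat (SD) across 6 brain regions. The comparison took every WKY array and every SD array of the series, 12 of 24, and paired them by region. The regions were prefrontal cortex, hippocampus, the dorsal and the ventral striatum, the cerebellar vermis, and the substantia nigra with its neighbour, the ventral tegmental area (VTA). The values are 6 differences, 1 for each region, of log2(signal + 1) in WKY minus SD.

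The series compared 2 rat models of attention deficit hyperactivity disorder by microarray, SHR as the genetic model and SD rats exposed to polychlorinated biphenyls (SD-PCB) as the environmental one. Brains came from 28 male rats at postnatal day 55 to 65: 8 WKY, 8 SD, 8 SHR and 4 SD-PCB. Each strain group gave 1 array per region, and whether an array held RNA pooled from several rats is not stated. WKY and SD rats received no named agent, and neither group carried a named allele. Which rats gave which region is not stated, and the arrays of a strain may share rats. The tests below therefore measure how well the regions agree, not how much animals of a strain vary. The fit estimates its spread over all 24 arrays of the series, not over the 6 pairs alone. Strain cannot be told apart from the rats used.

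As background, WKY is an inbred strain from the Wistar stock from which SHR was also bred, and it serves as the control of SHR because of that shared descent. SD is an outbred stock. WKY rats are themselves known for passive, low-activity behaviour in stress tests, and colonies from different breeders differ genetically. Inbred strains carry fixed sequence variants, and on an oligonucleotide array a variant under a probe can lower or raise a signal as a change in transcript level does. The probe sequences were not used here, so these cannot be told apart for any single probe set.

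The regions carried the transcripts of their cell types in both strains. The dopamine transporter Slc6a3 read 5916 in the WKY and 7789 in the SD substantia nigra, against at most 35.2 and 122 on the other arrays of each strain. The dopamine receptor Drd1, a striatal marker, read 5988 and 6100 in the dorsal striatum of WKY and SD. Gabra6, a receptor subunit of cerebellar granule cells, read 22310 and 24460 in the vermis. Median signal was 121 ± 16.3 on the WKY arrays and 163 ± 19.8 on the SD arrays (standard deviation over regions, n = 6). Signals under 50 made up 31.2% of probe sets in WKY and 21.4% in SD. All 18 probe sets for hybridisation controls added to the sample were lower in WKY, with a median log2 difference of -1.36. The 3' to 5' ratio (log2), which reflects the integrity of the labelled RNA, averaged 1.91 in WKY and 2.04 in SD for Gapdh, and 4.27 and 3.86 for beta-actin. In all 6 regions the WKY array had the lower median signal, the larger share under 50 and the lower added controls. The Gapdh ratio was lower in WKY in all 6 regions, and the beta-actin ratio was higher in 4 and lower in 2. The part of these measures in the differences below was not tested.

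Among 9009 genes with a tested probe set, 1525 differed between WKY and SD (16.9%, limma, Benjamini-Hochberg adjusted p under 0.05): 827 were higher in WKY (9.18%) and 698 lower (7.75%). Over probe sets, 2723 of 15521 passed (17.5%), 1384 higher (8.92%) and 1339 lower (8.63%). The median difference over all tested genes was 0.05. Large differences ran mostly downward, with 68 genes higher and 141 lower by a log2 of at least 1. Of the 1525 genes, 1149 kept 1 sign in all 6 pairs, 611 higher and 538 lower, where 1818 of all 9009 tested genes (20.2%) did. The call rests on the same 6 pairs, so this agreement in sign is not separate evidence. The count fell to 903 genes without the ventral striatum arrays, 958 without hippocampus and 996 without dorsal striatum. With each array centred on its median, the median of all genes moved from 0.05 to 0.47 and 5327 genes passed, of which 96.9% were higher, and with the array median as a covariate 30 passed.

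The direction of the differences followed the brightness of the probe set. In the 10% dimmest tested probe sets, 35 were called higher and 201 lower, with a median log2 difference of -0.19. In the 3880 probe sets between the 50th and the 75th percentile, 575 were higher and 188 lower, with a median of 0.15. In the brightest 1%, 156 probe sets with a median signal of 12800, 0 were higher and 126 lower, with a median of -0.42. After quantile normalization the median of the brightest 1% was -0.01. Values after quantile normalization are therefore given below for bright genes whose size or call they change. Median centring raised every difference by the same amount. Of 112 called genes that the naming rule chose, it ended the call of 31 and turned the sign of 15.

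**Figure D1:**
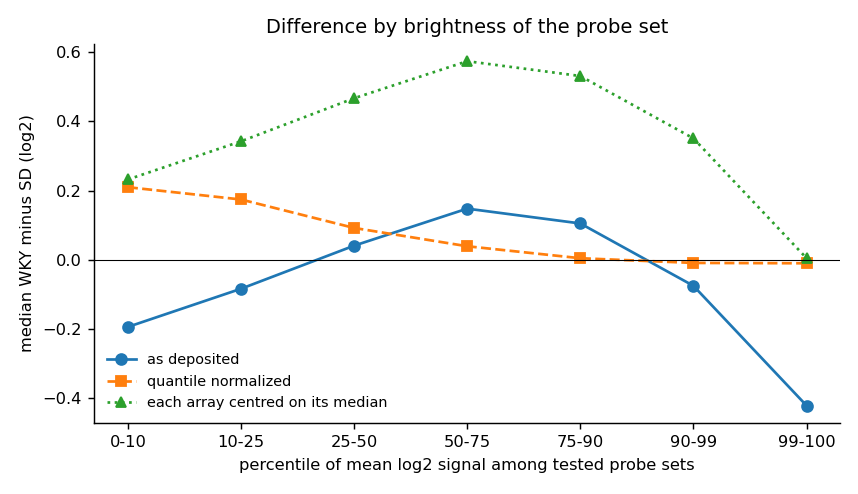
Median WKY minus SD difference (log2) of tested probe sets, by percentile of mean log2 signal. Circles are the deposited scaling, squares quantile normalization and triangles each array centred on its median; with the deposited scaling the brightest 1% sit at -0.42 and with quantile normalization at -0.01.

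The 12 largest rises in WKY had varied known roles. They were taken among called genes that kept 1 sign in every pair, so all 12 reach the smallest value of an exact two-sided sign-flip test over 6 pairs, p = 0.03125. Slc25a44, the mitochondrial carrier of branched-chain amino acids, led. Its signal was lowest at 1556, median 1804 and highest at 2425 on the WKY arrays, and 355, 420 and 602 on the SD arrays. The strains did not overlap, and the log2 difference was 2.10 ± 0.13 (SE, n = 6; limma adjusted p = 1.18e-10), a 4.28-fold higher level. Regional differences ran from 1.51 in the dorsal striatum to 2.50 in the hippocampus. A second probe set of Slc25a44, also bright, differed by 0.08 ± 0.10 and did not pass.

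C10h5orf15, a gene of little-known function, was the brightest of the 12. It read 5745 to 7698 in WKY (median 6551) and 1735 to 2533 in SD (median 2347), with a log2 difference of 1.57 ± 0.14 (limma adjusted p = 4.39e-08). Its second tested probe set differed by 0.27 ± 0.17 and did not pass. Prrt2, a presynaptic protein whose loss causes paroxysmal movement disorders and infantile seizures, read 1694 to 2886 in WKY (median 1870) and 406 to 1206 in SD (median 616). The ranges did not overlap, and the difference was 1.65 ± 0.18 (limma adjusted p = 1.35e-06). Amigo2, a neuronal adhesion protein known from a subfield of the hippocampus, varied widely between regions. It spanned 308 to 2756 in WKY (median 2205) and 30.9 to 1204 in SD (median 683), so the ranges overlapped, yet WKY was higher in each pair by 0.99 to 3.27, with a mean of 1.91 ± 0.24 (limma adjusted p = 1.02e-05).

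The other 8 rises were dimmer. Cwc25, a splicing factor, read 596 to 882 in WKY (median 652) and 143 to 395 in SD (median 242), a difference of 1.53 ± 0.25. Letm2, a protein of the inner mitochondrial membrane, read 320 to 886 (median 423) and 58.9 to 595 (median 199), a difference of 1.51 ± 0.26 with overlapping ranges. Gpatch11, a G-patch protein, read 290 to 398 (median 357) and 41.0 to 240 (median 142), a difference of 1.50 ± 0.28. For 4 others the vermis pair was the widest. Dkc1, the pseudouridine synthase dyskerin, read 132 to 211 in WKY and 14.99 to 112 in SD, a difference of 1.85 ± 0.34. The zinc finger gene Zfp593 read 187 to 290 and 13.8 to 167, a difference of 1.80 ± 0.36. The endocytic adaptor Eps15l1 read 175 to 363 and 15.9 to 302, a difference of 1.63 ± 0.35. Pmm2, the phosphomannomutase of protein glycosylation, read 178 to 280 and 15.95 to 163, a difference of 1.50 ± 0.36. In these 4 genes the vermis pair differed by 3.58, 3.66, 3.39 and 4.05. The SD vermis array read 14.99, 13.8, 15.9 and 15.95 there, and whether such signals lie above background is unknown. Without the vermis arrays the mean differences were 1.50, 1.42, 1.28 and 0.99. The uncharacterised LOC102553528 read 104 to 328 and 11.1 to 145, a difference of 1.96 ± 0.38, and its widest pair was prefrontal cortex at 4.10. In all 12, the call held when any 1 region was left out. For 5 of them the array holds further probe sets too dim to be tested, and most did not share the rise. That of Pmm2 differed by -1.07 and was lower in WKY in all 6 pairs, with means of 56.3 and 126. Those of Zfp593 differed by -0.32 and -1.29, that of Letm2 by -0.35, that of Prrt2 by -0.04 and that of Gpatch11 by 0.66.

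**Figure D2:**
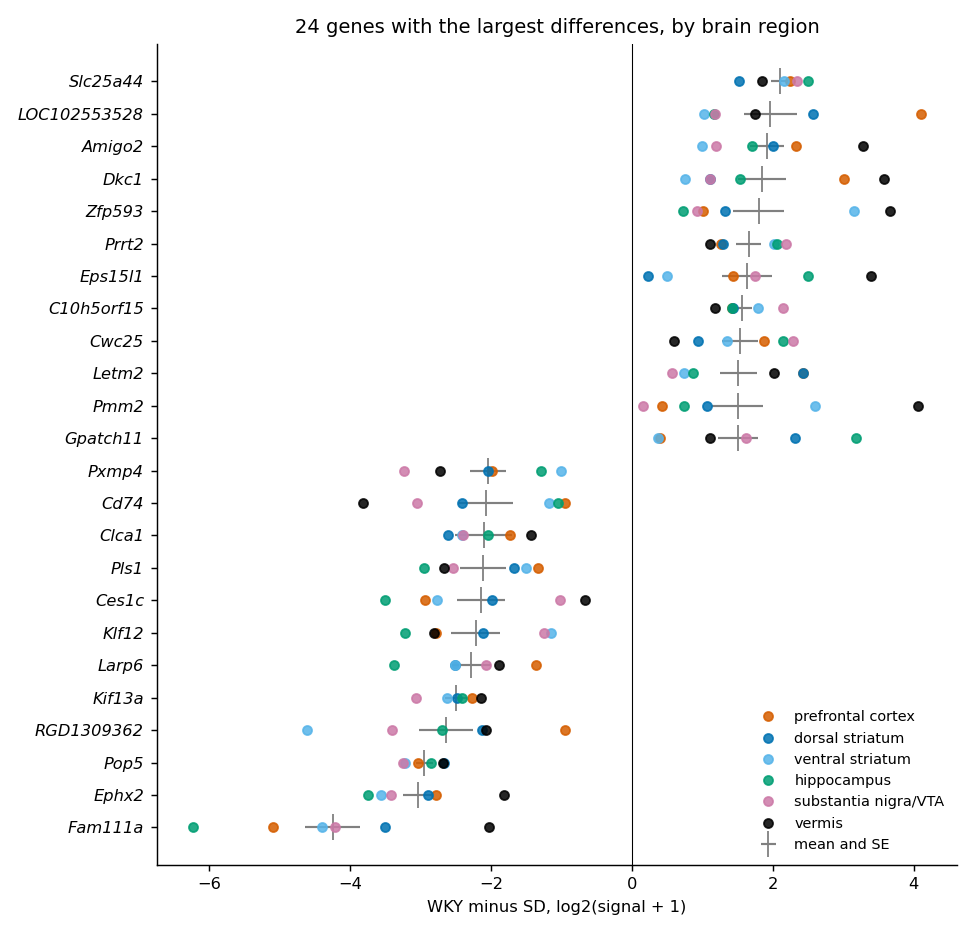
Difference of WKY minus SD in log2(signal + 1) for the 12 largest rises and 12 largest falls; each coloured point is 1 brain region and the grey mark is the mean ± SE of the fit (n = 6). All 6 points of a gene lie on one side of 0 because the genes were chosen so, and Fam111a reaches furthest with a mean of -4.25.

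The SD level was the low one for most of the 12 rises when the remaining arrays of the series are set beside it. Of the 12, 11 were also called higher than SD in SHR and 8 in SD-PCB. Their median log2 difference from SD was 1.78 in SHR and 0.80 in SD-PCB, beside 1.64 in WKY. SHR minus SD and SD-PCB minus SD share the SD arrays with WKY minus SD, so the comparisons are not independent. Choosing the largest rises over SD also favours genes that read low on the SD arrays. The shares of all tested genes called higher in SHR and in SD-PCB were not counted, so these counts lack a base rate. Slc25a44 read 1129 to 1436 in SHR and 970 to 1295 in SD-PCB, between the SD and the WKY ranges. Prrt2 read 1565 to 4556 in SHR, which overlaps WKY, and 803 to 1401 in SD-PCB, which overlaps SD. C10h5orf15 read 4116 to 6289 in SHR and 2154 to 4631 in SD-PCB. Amigo2 differed from SD by 0.51 in SHR (limma adjusted p = 0.114) and by 0.79 in SD-PCB (adjusted p = 0.0163), against 1.91 in WKY. Gpatch11 lay at 403 to 544 in SHR, above the WKY range, and at 84.7 to 167 in SD-PCB.

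Among the falls, 1 group was low in WKY while SHR lay at the SD level or above. Ephx2, the soluble epoxide hydrolase that degrades epoxy fatty acids, read 28.4, 54.8 and 74.7 (lowest, median, highest) in WKY and 265, 405 and 625 in SD. The ranges were far apart, and the log2 difference was -3.04 ± 0.21 (SE, n = 6; limma adjusted p = 1.28e-09), an 8.21-fold lower level. SHR read 386 to 722 and SD-PCB 320 to 557, so WKY stood alone. Kif13a, a kinesin that moves endosomal cargo, read 252 to 860 in WKY (median 292) and 1221 to 3781 in SD (median 1657). It fell by 2.50 ± 0.16 on the log2 scale (limma adjusted p = 3.36e-10), with pairs from -3.07 in the substantia nigra to -2.14 in the vermis. In both strains the vermis was the brightest array, 860 in WKY and 3781 in SD. SHR (1030 to 4160) and SD-PCB (870 to 3865) spanned the SD range. The other 2 probe sets of Kif13a, too dim to be tested, differed by -1.46 and -0.71.

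Larp6, an RNA-binding protein known for binding collagen messages, read 71.9 to 255 in WKY (median 108) and 415 to 1004 in SD (median 533), a difference of -2.29 ± 0.28. Pxmp4, a peroxisomal membrane protein, read 32.4 to 139 in WKY (median 68.0) and 241 to 316 in SD (median 291), a difference of -2.05 ± 0.26. SHR was above SD for Pxmp4, at 377 to 670, with a difference of 0.79 (limma adjusted p = 0.0206). RGD1309362, an uncharacterised gene, read 8.59 to 74.4 in WKY (median 39.7) and 110 to 377 in SD (median 221), a difference of -2.64 ± 0.38. None of these 3 overlapped with SD or with SHR. Cd74, the invariant chain of class II antigen presentation made by microglia and macrophages, read 17.5 to 88.3 in WKY (median 71.7) and 130 to 639 in SD (median 211), a difference of -2.07 ± 0.38. Cd74 did not share the pattern of this group, since its SHR arrays, at 55.3 to 294, overlapped both the WKY and the SD range.

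A second group of falls was low in WKY and in SHR. Pop5, a subunit of the RNase P and RNase MRP ribonucleoproteins, had the smallest standard error of the 24 leading genes. It read 151, 280 and 353 in WKY, against 1438, 2135 and 2546 in SD, with pairs from -3.25 to -2.67. The mean was -2.95 ± 0.12 (limma adjusted p = 5.17e-14), a 7.73-fold lower level. SHR read 204 to 290 and SD-PCB 1279 to 2614, so the WKY and SHR ranges lay together, as did those of both SD groups. A second, dimmer Pop5 probe set differed by -0.09 ± 0.23 and did not pass. Fam111a, a protease that limits the replication of certain viruses and acts at replication forks, showed the largest difference. It read 11.03, 36.9 and 117 in WKY and 478, 842 and 1152 in SD, a difference of -4.25 ± 0.39 (limma adjusted p = 1.05e-07), or 19.0-fold. SHR lay at 61.1 to 213 and SD-PCB at 159 to 365, so Fam111a was low in SD-PCB as well, with a difference from SD of -1.81 (adjusted p = 0.00128).

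Klf12, a transcriptional repressor, read 38.7 to 186 in WKY (median 90.6) and 267 to 497 in SD (median 448), a difference of -2.22 ± 0.34, and 32.7 to 183 in SHR. Pls1, an actin-bundling plastin, read 48.6 to 130 in WKY (median 71.2) and 140 to 762 in SD (median 378), a difference of -2.11 ± 0.32, and 13.99 to 146 in SHR. Clca1, named for a family of chloride channel accessory proteins, read 37.9 to 101 (median 82.0) and 129 to 556 (median 302), a difference of -2.10 ± 0.40, and 7.27 to 123 in SHR. For these 3 genes the WKY range lay below SD and overlapped SHR. Ces1c, a carboxylesterase, was the 1 fall whose WKY range overlapped SD: 46.9 to 540 (median 101) against 236 to 992 (median 582), a difference of -2.15 ± 0.34. It was also low in SD-PCB at 48.8 to 745 (median 56.7). Whether the lowest of these signals lie above background is unknown, since detection calls were not used here, so the folds of dim genes are uncertain. Those of Pop5 and Slc25a44 rest on brighter probe sets, but in each a second tested probe set did not share the difference. Further probe sets of Klf12, Ces1c, Clca1 and Pxmp4, under the filter, differed by -1.74, -0.94, -0.88 and -0.66. The call of each of the 12 falls held when any 1 region was left out. With the array median as a covariate, 7 of the 24 leading genes still passed.

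**Figure D3:**
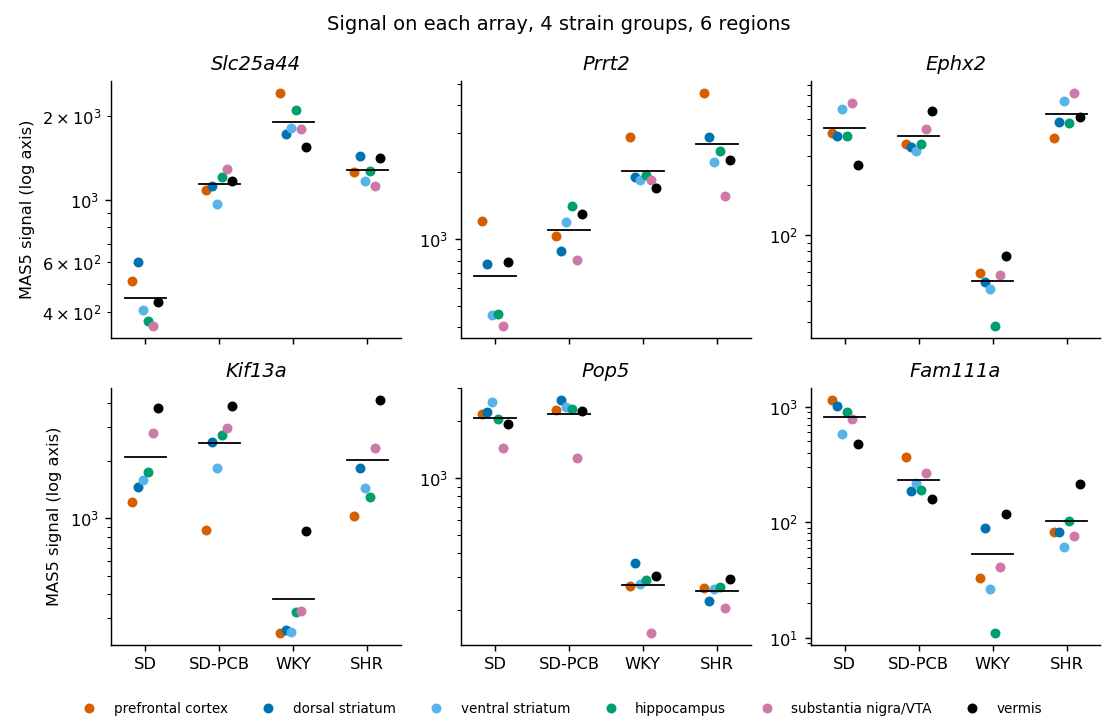
MAS5 signal (log axis) of 6 genes on every array; colours are the 6 regions and black bars the group means. Ephx2 and Kif13a are low in WKY alone, Pop5 is low in WKY and SHR (151 to 353 and 204 to 290), and Slc25a44 is lowest in SD at 355 to 602.

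Genes of the meninges and of fibroblasts were lower in WKY. Of 16 listed markers, 12 were tested and 10 fell (83.3%, beside 7.75% of all tested genes). All 12 lay below 0, and the median log2 difference was -1.16, beside 0.05 over all tested genes. Members and lists were chosen with earlier results of these data known. The share of this list and those of the lists below are therefore descriptions, not separate evidence. Lum, a matrix proteoglycan, read 26.1 to 126 in WKY (median 78.3) and 180 to 307 in SD (median 197), without overlap, a difference of -1.58 ± 0.32. Col1a2, a chain of type I collagen, read 84.6 to 471 in WKY (median 143) and 226 to 1115 in SD (median 503), a difference of -1.55 ± 0.29. Col3a1, of type III collagen, read 109 to 221 (median 162) and 233 to 705 (median 413), a difference of -1.36 ± 0.24. Ptgds, the prostaglandin D synthase of the leptomeninges, read 1629 to 5763 (median 3417) and 2624 to 17440 (median 7463), a difference of -1.24 ± 0.21. The other members that fell were Ogn (-1.26), Dcn (-1.18), Igfbp2 (-1.14), Slc13a3 (-1.08), Aldh1a2 (-0.98) and Col1a1 (-0.90). Igf2 (-0.58 ± 0.38) and Crabp2 (-0.64 ± 0.41) did not pass. The median was below 0 in every region, from -1.74 in the substantia nigra to -0.67 in the vermis. It stayed at -0.91 after quantile normalization, where 7 members fell and Dcn, Igfbp2 and Slc13a3 did not pass, and 9 fell without the prefrontal cortex arrays. With the array median as a covariate no member was called, and the median was -1.14. Among the fits that left out 1 region, Igfbp2 lost its call in 5, Aldh1a2 in 2 and Col1a1 in 1, with adjusted p up to 0.101, 0.0518 and 0.0608. The summed signal of the list was 2905 to 8671 on the WKY arrays and 4527 to 27830 on the SD arrays. It was 4931 to 24520 in SHR and 5304 to 16740 in SD-PCB. In tissue of mixed cells, fewer cells of a type and less RNA per cell cannot be told apart, and neither can the amount of meninges left on a dissected piece.

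Markers of blood, vessels, choroid plexus and ependyma had lower values in WKY too. Of 7 blood cell markers on the array, 1 was tested. Hbb, a beta-globin gene of red blood cells with near-identical copies, fell from 2961 to 5652 in SD (median 3399) to 1214 to 3343 in WKY (median 1791), a difference of -0.93 ± 0.12 (limma adjusted p = 1.53e-05). Of 11 tested endothelial and pericyte markers, 3 fell (27.3%, beside 7.75% of all tested genes) and none rose, with a median of -0.29. They were Pecam1 (-1.35 ± 0.30), an adhesion molecule of vessels, the transporter Slco1a4 (-0.67 ± 0.17) and Vtn (-0.80 ± 0.20), which pericytes express. Slco1a4 lost its call without the hippocampus arrays (adjusted p = 0.0522). The 4 tested markers of choroid plexus and ependyma had a median of -1.05, but none passed, 2 had an unadjusted p under 0.05 and none passed after quantile normalization. With the 12 WKY and SD arrays alone 3 of the 4 passed, all lower, and with array weights 1 did. Their medians ran from -2.42 in the vermis to 0.19 in the substantia nigra. Among 11 tested microglia markers 1 passed (9.09%, beside 16.9% of all tested genes). It was P2ry12, a purine receptor of resting microglia, with 0.38 ± 0.11. P2ry12 lost its call in 4 of the 6 fits that left out 1 region (limma adjusted p up to 0.103, without ventral striatum). After quantile normalization the call was lost as well (limma adjusted p = 0.0838).

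Many astrocyte markers were lower in WKY, to an extent that changed with the scaling. Of 15 tested, 9 fell (60.0%, beside 7.75% of all tested genes) and none rose, with a median of -0.36. After quantile normalization 3 fell and the median was -0.18, and with median centring the list's median was 0.07. With the array median as a covariate no member was called, and the median was -0.34. The glutamate transporter Slc1a3 read 7042 to 21260 in WKY (median 9135) and 12940 to 25250 in SD (median 16030). Its difference was -0.71 ± 0.09 (limma adjusted p = 7.39e-06) and -0.37 after quantile normalization, a call in both. The gap junction protein Gja1 read 14880 to 22090 in WKY and 22840 to 33930 in SD, a difference of -0.67 ± 0.09 that became -0.04 after quantile normalization. The water channel Aqp4 differed by -0.60 ± 0.10 and, after quantile normalization, by -0.28 with adjusted p = 0.065. Glutamine synthetase, Glul, differed by -0.41 ± 0.08 but by 0.02 after quantile normalization. Gfap, the filament of reactive astrocytes, was at -0.08 ± 0.17. The summed signal of the list was 75810 to 125000 on the WKY arrays and 108500 to 136800 on the SD arrays. It was 88080 to 114200 in SHR and 79590 to 126300 in SD-PCB, so sums below the SD range were not particular to WKY. The list's mean signals had a median of 5092. All tested probe sets between the 90th and the 99th percentile, with a median signal of 4569, had a median difference of -0.07, and 239 of these 1397 were lower in WKY.

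Of 14 tested oligodendrocyte markers, 4 fell (28.6%, beside 7.75% of all tested genes) and none rose, with a median of -0.18. The myelin gene Mobp read 3457 to 11110 in WKY (median 7210) and 7844 to 19960 in SD (median 11890), a difference of -0.84 ± 0.15, and -0.58 after quantile normalization. Myelin basic protein, Mbp, differed by -0.48 ± 0.11 and by -0.01 after quantile normalization, and the tight junction gene Cldn11 by -0.47 ± 0.11 and -0.05. Cnp, a myelin enzyme, differed by -0.36 ± 0.12, by -0.13 after quantile normalization and by 0.06 with median centring, and lost its call in 5 of the 6 fits that left out 1 region (adjusted p up to 0.177). The vermis pair stood at a median of 0.20 for the list, where the other 5 pairs lay below 0. The summed signal of the listed markers on the array was 37250 to 84730 in WKY and 58620 to 114100 in SD. It was 51850 to 94040 in SHR and 41970 to 74450 in SD-PCB.

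**Figure D4:**
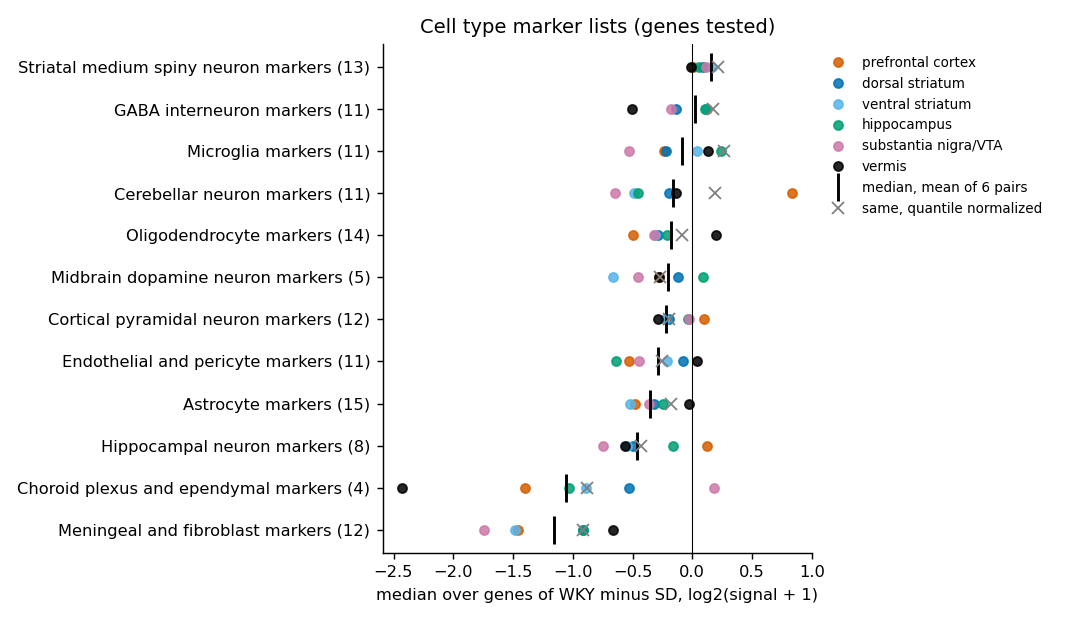
Median WKY minus SD difference (log2) over the tested genes of each cell type marker list; coloured points are the 6 regions, black bars the value from the mean of 6 pairs and crosses the same after quantile normalization. The meningeal and fibroblast list lies at -1.16, below 0 in every region, and the cerebellar list reaches 0.84 in the prefrontal cortex pair.

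Markers of neuron types were read against the 16.9% of all tested genes that differed. None of the 13 tested markers of striatal medium spiny neurons passed in limma and none had an unadjusted p under 0.05, with a median of 0.16; none passed after quantile normalization either. Adora2a, their adenosine receptor, was at 0.90 ± 0.53 and the neuropeptide gene Tac1 at 0.40 ± 0.21. Of 12 cortical pyramidal markers none passed, 2 had an unadjusted p under 0.05 and none passed after quantile normalization. Sst, the somatostatin gene of a class of interneurons, fell from a median of 1542 in SD to 1023 in WKY, a difference of -0.64 ± 0.13 (limma adjusted p = 0.00164). Among hippocampal markers, 2 of 8 fell: Prox1, the granule cell transcription factor (-0.39 ± 0.12, and 0.04 with median centring), and C1ql3, a secreted synaptic organiser (-1.25 ± 0.40). Prox1 lost the call in 3 of the 6 fits that left out 1 region and C1ql3 in 4, and C1ql3 also after quantile normalization (adjusted p = 0.0758).

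Dopamine genes changed in single members. Of 6 tested genes of dopamine synthesis and transport 1 passed (16.7%, beside 16.9% of all tested genes). Of 5 tested midbrain dopamine neuron markers 2 passed (40.0%), and Ddc is in both lists. Ddc, which makes dopamine from L-DOPA, was lower in all 6 pairs, with a difference of -1.09 ± 0.31 (limma adjusted p = 0.0191). In the substantia nigra, the seat of dopamine neurons, it read 651 in WKY and 1486 in SD. The call was lost after quantile normalization (-0.58) and without the dorsal striatum or the hippocampus arrays. Nr4a2, a nuclear receptor needed by dopamine neurons and also an immediate early gene, fell by 1.10 ± 0.37 on the log2 scale and lost the call in 5 of the 6 fits that left out 1 region (adjusted p up to 0.14, without dorsal striatum) and after quantile normalization. Th, the tyrosine hydroxylase of dopamine neurons, was under the signal filter, and read 1367 in WKY and 2222 in SD in the substantia nigra. Slc6a3 was under the filter as well. Of 15 tested dopamine receptor and signalling genes 1 passed (6.67%, beside 16.9% of all tested genes). It was Arpp21, a striatal phosphoprotein (-0.52 ± 0.17). Its call was lost in 4 of the 6 fits that left out 1 region and after quantile normalization. Adra2a, the noradrenaline receptor on which guanfacine acts, read 158 to 463 in WKY (median 264) and 364 to 509 in SD (median 412), a difference of -0.68 ± 0.20. It lost its call without the ventral striatum, the dorsal striatum or the vermis arrays.

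Glutamate, GABA and vesicle genes moved both ways. Of 21 tested glutamate genes 1 rose and 4 fell (23.8%, beside 16.9% of all tested genes), with a median of -0.07. Grin1, the obligatory subunit of NMDA receptors, was higher in all 6 pairs, with 580 to 1097 in WKY (median 895) and 354 to 831 in SD (median 517), a difference of 0.64 ± 0.14. Gria2, the AMPA receptor subunit that blocks calcium entry, differed by -0.23 ± 0.07, but by 0.10 after quantile normalization and 0.20 with median centring. The metabotropic receptor Grm5 fell by 0.50 ± 0.17 on the log2 scale, and differed by -0.35 after quantile normalization (adjusted p = 0.146). Gria2 and Grm5 each lost the call in 4 of the 6 fits that left out 1 region, with adjusted p up to 0.162 and 0.186. In the GABA system 1 of 12 passed (8.33%), the receptor subunit Gabra2. It read 455 to 2847 in WKY (median 2371) and 695 to 5228 in SD (median 4003), a difference of -0.76 ± 0.19. Among 16 vesicle genes 2 rose and 3 fell (31.25%, beside 16.9% of all tested genes). Vamp2, the vesicle SNARE protein, rose by 0.69 ± 0.17. Snap25, its partner on the plasma membrane, differed by -0.50 ± 0.07 with 13380 to 27840 in WKY and 18600 to 34030 in SD, but by 0.04 after quantile normalization. Sv2b, a vesicle glycoprotein, differed by -0.54 ± 0.11 and by -0.06 after quantile normalization. The calcium sensor Syt4 fell by 0.48 ± 0.09 on the log2 scale and kept its call after quantile normalization (-0.32).

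Ion channel and calcium genes moved both ways. Of 19 tested calcium handling genes, 4 rose and 2 fell (31.6%, beside 16.9% of all tested genes), with a median of 0.10. Ryr1, a calcium release channel of the endoplasmic reticulum, read 509 to 1421 in WKY (median 1061) and 167 to 972 in SD (median 387), a difference of 1.18 ± 0.24. The plasma membrane calcium pump Atp2b3 rose by 0.80 ± 0.17, calmodulin 2 (Calm2) by 0.49 ± 0.12 and Ryr3 by 0.55 ± 0.19. Ryr3 lost the call after quantile normalization (adjusted p = 0.0904) and in 5 of the 6 fits that left out 1 region (up to 0.149). Itpr1, the inositol trisphosphate receptor, differed by -0.42 ± 0.09, by -0.20 after quantile normalization and by 0.01 with median centring. Of 28 potassium and sodium channel genes, 3 rose and 2 fell, 17.9% in all. Kcnip3, a calcium-binding channel partner, read 443 to 676 in WKY (median 555) and 146 to 496 in SD (median 301), a difference of 1.03 ± 0.21. The potassium channel subunit Kcnab2 rose by 0.92 ± 0.21 and the sodium channel subunit Scn3b by 0.51 ± 0.14, the latter not without the dorsal striatum arrays (adjusted p = 0.0583). Its relative Scn2b fell, with 2525 to 4678 in WKY and 3869 to 7672 in SD, a difference of -0.57 ± 0.09.

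Some genes of DNA methylation were higher in WKY. Of 13 tested, 4 rose (30.8%, beside 9.18% of all tested genes) and none fell. The median was 0.28, beside 0.05 over all genes, and 7 of the 13 lay above 0. Tet2, which oxidises methylcytosine, read 559 to 805 in WKY (median 629) and 259 to 474 in SD (median 336), without overlap, a difference of 0.88 ± 0.29. Dnmt1, the maintenance methyltransferase, read 154 to 254 (median 217) and 31.5 to 181 (median 128), a difference of 0.99 ± 0.32. The methyl-binding proteins Mbd3 and Mbd1 rose by 0.49 ± 0.16 and 0.38 ± 0.09. Each was higher in all 6 pairs, yet Tet2, Dnmt1 and Mbd3 lost the call in 4, 5 and 5 of the 6 fits that left out 1 region, with adjusted p up to 0.169, 0.101 and 0.22. After quantile normalization 2 of the list were called, not including Mbd1 and Mbd3. Of 12 histone deacetylases none passed in limma, 4 had an unadjusted p under 0.05, and the median was 0.23; none passed after quantile normalization. Hdac11 was at 0.36 ± 0.13 and Hdac3 at 0.41 ± 0.14. Kat7, a histone acetyltransferase, read 1507 to 2037 in WKY and 922 to 1429 in SD, without overlap, a difference of 0.53 ± 0.10. Of 26 histone methylation genes 2 rose and 2 fell (15.4%, beside 16.9% of all tested genes). Prmt5, an arginine methyltransferase, and the lysine methyltransferase Kmt2a rose by 0.38 ± 0.11 and 0.54 ± 0.16. The lysine methyltransferase Setd2 fell by 0.79 ± 0.20 on the log2 scale, and the demethylase Kdm5a differed by -0.38 ± 0.12 but by 0.05 with median centring. Prmt5, Kmt2a and Setd2 did not pass after quantile normalization. Setd2 lost its call without the ventral striatum arrays (adjusted p = 0.0659), Prmt5 in 2 of the 6 fits that left out 1 region, Kmt2a in 3 and Kdm5a in 5, with adjusted p up to 0.0723, 0.11 and 0.112. Smarca5, a remodelling ATPase, fell by 0.63 ± 0.08 on the log2 scale, with 8268 to 13950 in WKY and 11600 to 19280 in SD, and differed by -0.31 after quantile normalization.

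Lipid and peroxisome genes fell where they passed, with the exception of 1 sterol enzyme. Of 22 peroxisomal genes 5 fell (22.7%, beside 7.75% of all tested genes) and none rose, with a median of -0.12. Beside Ephx2 and Pxmp4 these included Gnpat, the first enzyme of plasmalogen synthesis, which read 370 to 491 in WKY and 559 to 721 in SD, a difference of -0.58 ± 0.14. The sterol carrier Scp2 fell by 0.53 ± 0.12 on the log2 scale. Of 30 fatty acid and epoxide genes 5 fell (16.7%) and none rose, with a median of -0.16; Ephx2 is also in the peroxisomal list and Ptgds also in the meningeal one. Scd2, the brain stearoyl-CoA desaturase, read 10530 to 19690 in WKY (median 11480) and 15420 to 24730 in SD (median 19450), a difference of -0.67 ± 0.08, and -0.24 after quantile normalization. Elovl5, which lengthens polyunsaturated fatty acids, differed by -0.48 ± 0.08 and by -0.22 after quantile normalization, a call in both. In cholesterol synthesis, Sc5d rose by 0.40 ± 0.09 in all 6 pairs, while Cyp51 (-0.54 ± 0.10), Lss (-0.72 ± 0.22) and Ebp (-0.53 ± 0.18) were lower. Lss and Ebp did not pass after quantile normalization, and each lost the call in 4 of the 6 fits that left out 1 region (adjusted p up to 0.0792 and 0.196, without prefrontal cortex).

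Genes of basic cell functions were mostly bright, and several changed sign with median centring, which raised every difference by the same amount. All 13 tested cytosolic ribosomal protein genes lay below 0 and 5 fell (38.5%, beside 7.75% of all tested genes). They had a median of -0.24 and a median mean signal of 6676. After quantile normalization the median was -0.03 and 3 fell, and with median centring it was 0.19. Rpl11 kept its call after quantile normalization, with 3543 to 4780 in WKY and 5259 to 7646 in SD, a difference of -0.69 ± 0.10 and then -0.60. Of 25 oxidative phosphorylation genes 1 rose and 2 fell. The complex I gene Ndufv1 was higher in all 6 pairs by 0.44 ± 0.14, but did not pass after quantile normalization (adjusted p = 0.143), while Ndufa4 (-0.25 ± 0.07) and Atp5f1b (-0.39 ± 0.11) changed sign with median centring, to 0.17 and 0.04. In the proteasome Psmd11 rose by 0.35 ± 0.09, and Psmb3 and Psmd1 differed by -0.38 ± 0.11 and -0.37 ± 0.13 but by 0.05 and 0.06 with median centring. Among the 6 fits that left out 1 region, Ndufv1 and Atp5f1b lost the call in 4 and Ndufa4 in 3, with adjusted p up to 0.0975, 0.105 and 0.098. Psmd11 and Psmb3 lost it in 3 and Psmd1 in 5, with adjusted p up to 0.0633, 0.105 and 0.159. For each of these 6 genes the highest value came without the ventral striatum arrays. Cryab, a small heat shock protein of glia, read 723 to 3684 in WKY (median 1160) and 1867 to 6713 in SD (median 2879), a difference of -1.14 ± 0.20. Hsph1 and Hsp90ab1, 2 large chaperones, differed by -0.39 ± 0.08 and -0.33 ± 0.09 and by 0.04 and 0.10 with median centring, and Hsp90ab1 did not pass without the hippocampus arrays (adjusted p = 0.0663). Of the antioxidant enzymes, Txnrd1 rose by 0.44 ± 0.11 in all 6 pairs, and catalase, Cat, differed by -0.41 ± 0.14 but by 0.02 with median centring, and lost its call without the ventral striatum, the dorsal striatum or the prefrontal cortex arrays (adjusted p up to 0.182).

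Single regulators of growth, stress and rhythm passed. They came from lists in which 7.14% to 14.3% of tested genes passed, beside 16.9% of all tested genes. Dusp6, the phosphatase that ends ERK signalling, read 894 to 2520 in WKY (median 1224) and 2237 to 7063 in SD (median 3240), a difference of -1.44 ± 0.17 (limma adjusted p = 3.59e-06). Sgk1, a kinase induced by glucocorticoids, read 3375 to 5839 in WKY (median 5120) and 6435 to 9403 in SD (median 8196), without overlap, a difference of -0.77 ± 0.10 (limma adjusted p = 2.06e-05). SHR read 3768 to 4736 for Sgk1, within the WKY range. Igf1r, the receptor of insulin-like growth factor 1, rose: 927 to 1428 in WKY (median 1212) against 463 to 1158 in SD (median 611), a difference of 0.87 ± 0.17. Its SHR arrays read 324 to 578 and its SD-PCB arrays 400 to 547, in the lower part of the SD range or below it. Dbp, an output gene of the circadian clock, was higher in all 6 pairs by 0.55 ± 0.14, and its relative Hlf differed by -0.39 ± 0.09 but by 0.04 with median centring. Among 14 genes of blood pressure signalling only the kinase gene Wnk1 passed, with 0.34 ± 0.10, but not in 4 of the 6 fits that left out 1 region, nor after quantile normalization. Scg2, a secretogranin of dense-core vesicles, rose by 0.63 ± 0.14 and Slco1c1, a thyroid hormone transporter, fell by 0.64 ± 0.19 on the log2 scale, the latter not without the prefrontal cortex, the hippocampus or the ventral striatum arrays. Of 19 glutathione genes, Mgst1 rose by 0.54 ± 0.18, a call lost in 5 of the 6 fits that left out 1 region (adjusted p up to 0.196), and Gstz1 fell by 0.54 ± 0.15 on the log2 scale, not without the ventral or the dorsal striatum arrays.

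Antigen presentation genes are counted with caution, because class I genes of the rat (RT1) form a family of near-identical members. Of 10 tested, 1 rose and 3 fell (40.0%, beside 16.9% of all tested genes), with a median of -0.16. Beside Cd74, RT1-CE16 read 116 to 194 in WKY and 197 to 347 in SD, a difference of -0.70 ± 0.24. RT1-S3 fell by 0.67 ± 0.20 on the log2 scale and RT1-N3 rose by 1.05 ± 0.31. The calls of the 3 RT1 genes were lost without the hippocampus arrays, with adjusted p of 0.172, 0.127 and 0.112. RT1-CE16 lost its call in 5 of the 6 fits that left out 1 region and RT1-S3 in 4, and both also after quantile normalization.

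The prefrontal cortex pair was examined alone, with 1 array per strain and therefore no test. The WKY prefrontal cortex array held transcripts of cerebellar neurons that the other 3 prefrontal cortex arrays of the series did not reach. Gabra6 read 2297 there, against 28.8 to 97.0 on the other 3, which is an excess of 10.04% of its level on the WKY vermis array. Pcp2, a Purkinje cell gene, read 668 against 29.4 to 76.2, an excess of 5.10%. Cbln1, a granule cell synaptic organiser, read 911 against 98.2 to 149, an excess of 8.77%. Ppp1r17 read 434 against 38.8 to 93.7, and Car8 901 against 190 to 336, both Purkinje cell genes. En2, a cerebellar homeobox gene under the filter, read 324 against at most 17.0. Calb1, Itpr1 and Pvalb, which cortical neurons also express, read 5242, 8300 and 2628 on the WKY array, inside or close to the range of the other 3. Some cerebellar markers were not highest on the WKY array: Zic4 read 85.3 there and 147 in SD, and, under the filter, Slc1a6 54.6 and 126, Fat2 55.5 and 107, and Barhl1 16.7 and 117.

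Over the 11 tested cerebellar markers, the prefrontal cortex pair had a median log2 difference of 0.84, and the other 5 pairs lay between -0.65 and -0.13. Of 19 tested genes at least 3 log2 units higher in the vermis than in the 4 regions other than prefrontal cortex, 13 (68.4%) exceeded the mean of the other 5 pairs by at least 1 in the prefrontal cortex pair. Of all 9009 tested genes 2.28% did. Outside the vermis and prefrontal cortex some of these genes were dim, so their differences in those pairs are uncertain. Gabra6 read 4.98 to 151 in WKY and 44.0 to 305 in SD there. Pcp2 read 5.84 to 102 and 30.4 to 116. The part of such low signals in the values of the other pairs was not tested. Patj and Zfp521, also bright in the vermis (16110 and 14420 in WKY), were among the 5 genes highest in the prefrontal cortex pair relative to the others among the brightest 25% of genes, with 2.29 and 0.99. The remaining 3 were Pcyox1 (1.09), Trappc5 (0.86) and Penk (0.80), and the WKY vermis level of Pcyox1, 2664, lay below its WKY prefrontal cortex level, 5672. The 5 lowest among the brightest 25% were Selenow, Csrp1, Cdip1, Nub1 and Inf2, from -0.91 to -0.79. The 2 called genes of the cerebellar list, Zic4 (-1.54 ± 0.29) and Itpr1, were lower in WKY and stayed called without these arrays.

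**Figure D5:**
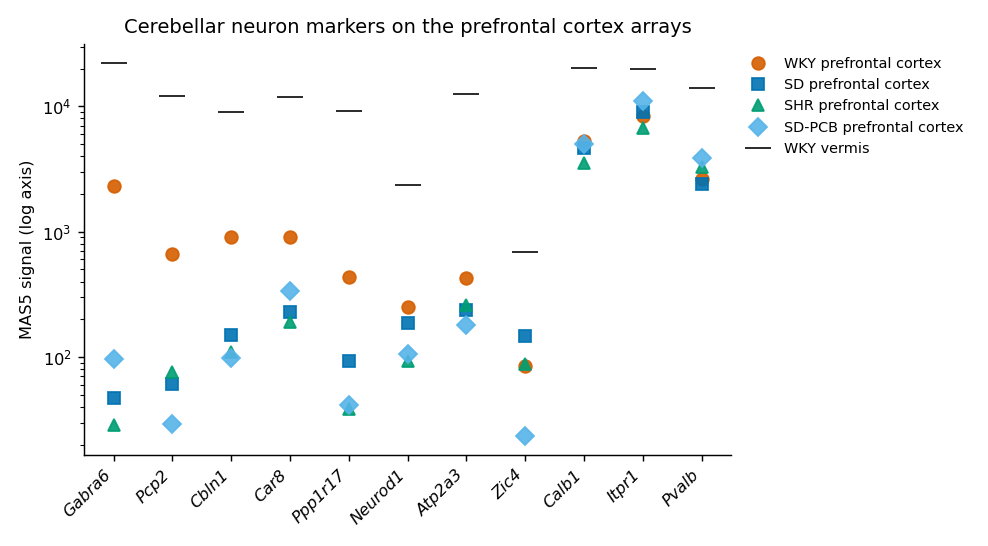
MAS5 signal (log axis) of the 11 tested cerebellar neuron markers on the 4 prefrontal cortex arrays, with the WKY vermis array as a bar. The WKY prefrontal cortex array stands above the other 3 for Gabra6 (2297), Pcp2 (668), Cbln1 (911), Car8 (901) and Ppp1r17 (434).

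The comparison over regions was repeated without the prefrontal cortex arrays. It called 1132 genes, of which 1088 were among the 1525 called with them: 71.3% of the larger set and 96.1% of the smaller, all 1088 in the same direction. All 24 leading genes stayed called. In the prefrontal cortex pair itself 1494 of the 1525 genes had the sign of the mean of the other 5 pairs, a share in which the pair is not independent of the call. For the substantia nigra pair this share was 93.6%, for the vermis pair 88.8%, and for the other pairs 97.6% to 98.6%.

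The vermis pair resembled the others least. Across the 15521 tested probe sets its differences correlated with those of the other 5 pairs at r = 0.11 to 0.27, and those 5 among themselves at 0.34 to 0.50. The points are probe sets, which are not independent replicates, and all pairs share the array scaling and may share rats. Its differences were also the widest, with a standard deviation of 0.80 against 0.58 to 0.69, and 2.87% of probe sets beyond 2 log2 units against 0.85% to 1.84%. Without the vermis arrays 1762 genes passed. The WKY vermis array also stood apart from the other 5 WKY arrays in its signal measures. Its median signal was 152.6, against 108.9 to 121.6, and 22.2% of its signals were under 50, against 30.8% to 34.3%. Its added controls had a median log2 signal of 13.57, against 12.09 to 12.27. The part of these measures in the vermis differences was not tested.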

How the data were processed

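RNA was purified with RNeasy columns and labelled with the Ovation kit, per the labels' protocols, and read on Affymetrix Rat RAE 230 2.0 arrays. The deposited values are 1 linear intensity per probe set and array, MAS5 signals per the submitters' processing notes, with a 2% trimmed mean near 500.2 on each array. Tool versions and detection calls are not given in the sources used here. Of 31099 probe sets 57 were controls. Of the 31042 kept, the platform table gave 1 symbol to 20826, several to 436 and none to 9780. Symbols were updated through the RefSeq annotation of GRCr8, in which 20758 matched. Signals were taken as log2(signal + 1), and the 15521 probe sets at or above the median mean (a signal of about 116) were tested. A gene is its brightest tested probe set with 1 symbol.

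limma 3.58.1 in R 4.3.3 fitted strain group and region over all 24 arrays (15 residual degrees of freedom), with a trend, two-sided, with Benjamini-Hochberg adjustment over probe sets and a threshold of 0.05. The SHR and SD-PCB arrays add only to the estimate of the spread. The 43 gene lists held 910 genes, and 599 could be tested. Members and lists were chosen with earlier results of these data known. Named genes are the 12 largest rises and 12 largest falls with 1 sign in 6 pairs, up to 4 called members of a list by smallest p (the 2 smallest p where none passed), label checks, and the 5 highest and 5 lowest genes of the prefrontal cortex pair among the brightest 25%. Members outside this rule (Ryr3, Grm5, the further meningeal markers, Gfap, En2, Slc1a6, Fat2, Barhl1) were named after their values were seen. Alternatives were quantile normalization, median centring, a pseudocount of 16, other filters and variance models, the 12 WKY and SD arrays alone, the array median as a covariate, other thresholds, an exact sign-flip permutation and leaving out each region. Leaving out prefrontal cortex and vermis together was an alternative chosen after seeing the data. Simulated data with known changes were used to test the fit. With 1 array per strain and region, the number of arrays limits the precision.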

Additional observations from a re-analysis of the deposited data

Results flagged for a closer look

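Among the 6 region pairs, single pairs stood apart from the other 5 in 4 of 66 lists and leading genes checked by Dixon's gap ratio, where chance alone marks about 1 in 20. Earlier results of these data had already named the prefrontal cortex pair for its cerebellar markers, so that list is not to be counted against chance. The cerebellar neuron markers had a median log2 difference of 0.84 in the prefrontal cortex pair, and -0.65 to -0.13 in the others. The fatty acid and epoxide genes had a median of -0.36 in the prefrontal cortex pair, and -0.19 to -0.12 in the others. The antigen presentation genes had a median of 0.18 in the vermis pair, and -0.37 to -0.21 in the others. The cholesterol synthesis genes had a median of 0.30 in the vermis pair, and -0.24 to -0.04 in the others. The WKY vermis array also differed from the other WKY arrays in its signal measures, as given above.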

How the results depend on the processing

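The counts of called probe sets and genes moved with the scaling and the array covariate. Median centring gave 8745 probe sets and 5327 genes (95.2% and 96.9% higher), array weights 4205 and 2410, the array median as a covariate 74 and 30, and a log2 threshold of 1 gave 550 and 209. No filter gave 4889 probe sets (30.6% of them higher) and the upper 25% by mean signal 1782. Leaving out 1 region gave 1657 to 3100 probe sets and 903 to 1762 genes. The median of the cerebellar markers in the prefrontal cortex pair was 1.23 with median centring. After quantile normalization Glul (0.022), Gria2 (0.10) and Snap25 (0.038) changed sign. With median centring Cat (0.018), Glul (0.019), Gria2 (0.20), Hlf (0.037), Hsph1 (0.041), Hsp90ab1 (0.10), Atp5f1b (0.038), Ndufa4 (0.17), Rps3 (0.13), Psmb3 (0.048), Psmd1 (0.060), Itpr1 (0.0094), Kdm5a (0.046), Cnp (0.063) and Prox1 (0.038) did, and with the covariate Rpl5 (0.14). The cause of these shifts was not tested. With the array median as a covariate, 8 of 112 called named genes kept the call, 103 lost it and 1 changed sign. Of these 112 genes, 38 lost the call in at least 1 fit that left out a region, none of them among the 24 leading genes. After quantile normalization 77 kept it. Calls that ended there were those of RT1-S3, RT1-CE16, Mgst1, Wnk1, Ddc, Arpp21, Sv2b, Hlf, Nr4a2, Hsph1, Hsp90ab1, Atp5f1b, Ndufa4, Ndufv1, Rpl5, Rps3, Lss, Ebp, Itpr1, Mbd1, Mbd3, Setd2, Prmt5, Kmt2a, Arid1b, Gja1, Aqp4, Mbp, Cldn11, Cnp, P2ry12 and C1ql3, in addition to the 3 that changed sign; among members named outside the rule Ryr3, Grm5, Dcn, Igfbp2 and Slc13a3 lost it there as well. By region, calls ended without ventral striatum for RT1-CE16, Gstz1, Mgst1, Keap1, Cat, Wnk1, Arpp21, Adra2a, Gria2, Slco1c1, Nr4a2, Atp5f1b, Ndufa4, Ndufv1, Rpl5, Rps3, Lss, Ebp, Psmd11, Psmb3, Psmd1, Dnmt1, Tet2, Mbd3, Setd2, Kmt2a, Kdm5a, Cnp and P2ry12; without dorsal striatum for RT1-S3, RT1-CE16, Gstz1, Mgst1, Keap1, Cat, Wnk1, Ddc, Arpp21, Adra2a, Gria2, Nr4a2, Atp5f1b, Ndufa4, Rps3, Lss, Ebp, Psmd11, Psmb3, Psmd1, Scn3b, Dnmt1, Tet2, Mbd3, Kmt2a, Kdm5a, Cnp, P2ry12, Prox1 and C1ql3; and without hippocampus for RT1-N3, RT1-S3, RT1-CE16, Mgst1, Keap1, Wnk1, Ddc, Arpp21, Gria2, Slco1c1, Nr4a2, Hsp90ab1, Atp5f1b, Ndufv1, Rps3, Lss, Psmd11, Psmd1, Dnmt1, Tet2, Mbd3, Prmt5, Kmt2a, Kdm5a, Cnp, P2ry12, Slco1a4, Prox1 and C1ql3. They ended without prefrontal cortex for RT1-S3, RT1-CE16, Mgst1, Cat, Wnk1, Gria2, Slco1c1, Nr4a2, Atp5f1b, Ndufa4, Ndufv1, Lss, Ebp, Psmb3, Psmd1, Mbd3, Kdm5a, Cnp, P2ry12 and Prox1; without substantia nigra for RT1-S3, RT1-CE16, Keap1, Rps3, Psmd1, Dnmt1, Tet2, Kdm5a, Cnp and C1ql3; and without vermis for Mgst1, Arpp21, Adra2a, Nr4a2, Ndufv1, Ebp, Dnmt1, Mbd3, Prmt5 and C1ql3. Of 688 list medians under alternatives, 611 stayed within the spread over regions, and 41 of the 77 that moved did so with median centring. Arrays were paired by region, as a term of the fit, and the labels give no replicate number. Of 397 called genes with at least 2 tested probe sets, another probe set passed in the same direction in 67 and in the opposite one in 23.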

Other observations

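Neighbouring genes gave 1 cluster of at least 3 called genes with an absolute log2 difference of at least 1 within 1 Mb of the GRCr8 annotation, on chromosome 1, in which 27 genes were tested. All 3 were higher in WKY in all 6 pairs. Eif3c, a subunit of the translation initiation factor eIF3, read 1346 ± 186 in WKY and 552 ± 183 in SD (standard deviation over regions, n = 6), a log2 difference of 1.34 ± 0.18 (SE; limma adjusted p = 1.49e-05). Pagr1, a partner of a histone methyltransferase complex, read 702 ± 575 and 256 ± 78.3, a difference of 1.23 ± 0.21 (limma adjusted p = 2.66e-04). Prrt2 was described above. The gene models of Pagr1 and Prrt2 overlap, so their probe sets may not be separate measurements. Among the 21 chromosomes with at least 100 tested genes, the share of tested genes that differed ran from 12.9% on chromosome 19 to 20.4% on chromosome 9.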
